A study of Mus musculus with 30 samples.

Results

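Wild-type mice of 2 mixed-background colonies were compared for their odorant receptor (OR) gene repertoire. They were chosen by their sample labels as the 6 wild-type mice of cartridge MK29 and the 6 wild-type mice of cartridge MK37, 12 of the 30 mice of the series. The MK29 mice come from the companion wild-type strain of ΔP (Berry) x ΔH, a strain that lacks the P and the H element, and the MK37 mice from the companion wild-type strain of ΔH. All 12 were wild-type, 21 days old and of mixed C57BL/6J x 129SvEv background; how much of each parental strain a given mouse carried is not given in the labels. The MK29 mice were 3 females and 3 males, and the MK37 mice 4 females and 2 males. As colony and cartridge change together, a difference between the groups cannot be assigned to either. Each lane held 1 μg of RNA from the whole olfactory mucosa of 1 mouse, and probes for 558 OR genes out of 564 in the table had counts in these lanes. Nothing in the labels says whether the 6 mice of a group came from separate litters, so p values measure the spread between these mice. For 2 further groups values are given side by side as a description: the 6 ΔHxΔP mice of MK29, homozygous for both deletions, of the same mixed background and read on the same cartridge as the MK29 wild-type mice, and 6 wild-type mice of pure 129S6/SvEvTac background on cartridge MK38. Mice of both groups were also 21 days old. The ΔHxΔP mice were 1 female and 5 males, and the 129 mice 4 females and 2 males.

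OR genes form the largest gene family of the mouse. They encode the receptors with which olfactory sensory neurons detect odorants, and they lie in clusters on most chromosomes. A mature olfactory sensory neuron expresses 1 OR gene, from 1 of its alleles, so the count of an OR transcript in whole mucosa depends on how many neurons chose that gene and on how much RNA each of them holds. In these bulk samples fewer neurons and less RNA per neuron cannot be told apart. The H and P elements are enhancers that act on OR genes near them in cis.

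Each gene is counted through a pair of probes, a capture and a reporter probe, that bind next to each other on the transcript. The probes of the OR genes that led the comparison (Olfr24, Olfr844, Olfr855, Olfr893, Olfr909 and Olfr916) and of Olfr90 and Olfr107, which varied most between mice of the same colony, are shown because every value below rests on their hybridization. They are written as in the deposited table. Capitals mark the longest stretch that is identical to a stretch in a probe of another OR gene on the panel.
Olfr24 capture probe: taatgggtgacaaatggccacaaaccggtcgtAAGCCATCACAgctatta
Olfr24 reporter probe: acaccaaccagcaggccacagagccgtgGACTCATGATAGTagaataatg
Olfr855 capture probe: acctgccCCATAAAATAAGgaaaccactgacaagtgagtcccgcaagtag
Olfr855 reporter probe: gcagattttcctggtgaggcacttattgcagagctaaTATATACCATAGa
Olfr893 capture probe: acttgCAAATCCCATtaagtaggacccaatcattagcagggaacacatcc
Olfr893 reporter probe: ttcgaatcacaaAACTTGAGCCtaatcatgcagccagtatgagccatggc
Olfr909 capture probe: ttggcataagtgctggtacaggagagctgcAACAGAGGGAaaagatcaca
Olfr909 reporter probe: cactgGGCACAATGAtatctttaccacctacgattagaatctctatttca
Olfr916 capture probe: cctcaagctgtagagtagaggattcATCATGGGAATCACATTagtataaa
Olfr916 reporter probe: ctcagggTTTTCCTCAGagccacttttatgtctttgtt
Olfr844 capture probe: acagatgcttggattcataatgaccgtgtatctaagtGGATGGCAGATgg
Olfr844 reporter probe: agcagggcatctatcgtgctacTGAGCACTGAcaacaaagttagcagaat
Olfr90 capture probe: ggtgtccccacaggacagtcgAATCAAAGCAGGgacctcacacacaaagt
Olfr90 reporter probe: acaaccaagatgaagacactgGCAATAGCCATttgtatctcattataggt
Olfr107 capture probe: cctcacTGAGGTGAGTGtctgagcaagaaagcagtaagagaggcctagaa
Olfr107 reporter probe: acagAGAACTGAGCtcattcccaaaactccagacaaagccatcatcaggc
The longest such stretch, 17 bases in the capture probe of Olfr916, is shared with Olfr917. It was the only one of these 16 probes with a shared stretch above 13 bases. Olfr917 itself was counted at 131 to 198 in MK29 and 152 to 205 in MK37 mice, and did not pass the test between the colonies (log2 difference 0.18 ± 0.12 (SE), adjusted p = 0.227). Whether the probes match the 2 parental strains equally well was not analysed here.

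Raw OR counts summed to between 620615 and 832566 per lane in the MK29 group and between 708622 and 994182 in the MK37 group. Counts were scaled on the positive controls and then on 5 genes of mature olfactory sensory neurons, and are called scaled counts. These genes are Omp, the olfactory marker protein, Cnga2, a subunit of the cyclic nucleotide-gated channel, Adcy3, the adenylyl cyclase of the cilia, Gnal, the α subunit of the olfactory G protein, and Ano2, a calcium-activated chloride channel. With scaling on the positive controls alone, their geometric mean was 0.09 higher in MK37 on the log2 scale (exact 2-sided permutation test over all divisions of the mice, p = 0.247, adjusted p = 0.432 over 7 quantities). The median OR gene was 0.22 higher on the same scale (exact permutation p = 0.0065, adjusted p = 0.0303). On raw counts it was 0.23 higher (exact permutation p = 0.0303, adjusted p = 0.0606 over 2 quantities), which did not pass the adjustment. Of the 5 genes Adcy3 was 0.22 higher in MK37 (exact permutation p = 0.0087, adjusted p = 0.0303), and the other 4 differed by 0.02 to 0.10 with adjusted p values of 0.404 or more. Markers of other cells of the mucosa were not analysed here.

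The OR counts of the 2 groups, which differ in colony and in cartridge, differed in many genes by a little and in a few genes by a lot. Between the groups 223 of 556 tested OR genes (40.1%) were called at a Benjamini-Hochberg adjusted p under 0.05 in limma, 163 of them higher in MK37 (29.3%) and 60 higher in MK29 (10.8%). For 190 of the 223 the FC was under 1.5. The remaining 33 comprised 21 genes higher in MK37 (3.78%) and 12 higher in MK29 (2.16%). A FC of at least 2 was reached by 10 genes higher in MK37 (1.80%) and 1 higher in MK29 (0.18%). The values of the 6 mice of one colony all lay above those of the other for 112 of 558 genes (20.1%), with MK37 above for 81 (14.5%) and MK29 above for 31 (5.56%).

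The balance of directions moved with the scaling. The median OR gene was 0.10 higher in MK37 on the log2 scale after scaling on the 5 reference genes, 0.19 higher with the positive controls alone, and 0.01 higher with TMM or median of ratios over the OR genes. Accordingly 216 genes were called higher in MK37 and 32 in MK29 with the positive controls alone, 114 and 108 with TMM, and 112 and 112 with the median of ratios. The same direction was called under all 4 scalings for 112 genes higher in MK37 (20.1%) and 32 higher in MK29 (5.76%), 144 in all (25.9%). All 33 called genes with a FC of at least 1.5 were among these 144.

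**Figure D1:**
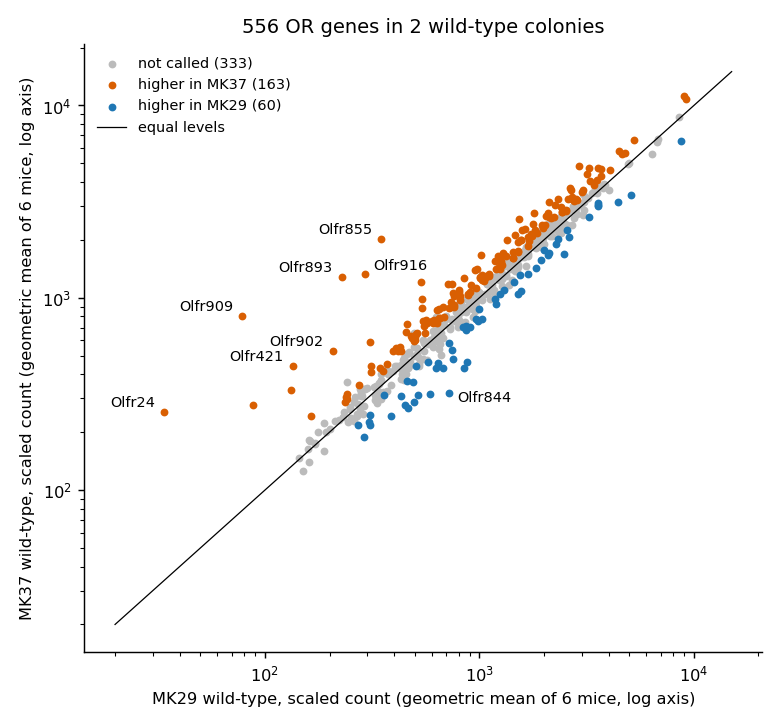
Geometric mean scaled count of 6 MK29 wild-type mice (x axis, log) and 6 MK37 wild-type mice (y axis, log) for 556 OR genes, with the line of equal levels. The 163 orange genes were called higher in MK37 and the 60 blue genes higher in MK29; most lie close to the line, while Olfr24, Olfr909, Olfr855, Olfr893 and Olfr916 stand far above it.

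tTREAT, a test for a FC beyond a threshold τ, was run at τ = 1.5 and an unadjusted p of 0.01. It called 10 of 558 OR genes (1.79%), 8 higher in MK37 (1.43%) and 2 higher in MK29 (0.358%). The 8 were Olfr855, Olfr893, Olfr909, Olfr916, Olfr902, Olfr975, Olfr24 and Olfr25, and the 2 were Olfr844 and Olfr223. Of these 10 genes, 9 lie on chromosome 9. Among the 9 are Olfr24, Olfr909 and Olfr975, which passed the expression filter only through their MK37 mice. Their values are given below as a description, and the FC counts that follow include them too. Chromosome 9 also held 9 of the 11 called genes with a FC of at least 2 and 15 of the 33 with a FC of at least 1.5, and 65 of the 556 tested genes (11.7%). Of the called genes with a FC under 1.5 it held 18 of 190 (9.47%).

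The OR genes of chromosome 9 lie in 2 clusters. In the proximal cluster, from Olfr24 to Olfr18, 15 of 24 tested genes were called (62.5%), 10 higher in MK37 and 5 higher in MK29, with a median log2 difference of 0.14 beside 0.10 over all OR genes. Over all OR genes 40.1% were called, 29.3% higher in MK37 and 10.8% higher in MK29. Under all 4 scalings 13 of the 15 calls held. Genes of opposite direction stood next to each other: Olfr844 was higher in MK29 and its neighbour Olfr843 in MK37, and Olfr855 was higher in MK37 between Olfr854 and Olfr862, both higher in MK29.

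Olfr855 had the smallest p of all OR genes. It was counted at 371, 308, 346, 339, 388 and 343 in the 6 MK29 mice and at 1847, 1477, 2926, 3042, 1681 and 1645 in the 6 MK37 mice, in lane order. The groups did not overlap, and the FC was 5.78 (log2 difference 2.53 ± 0.16 (SE), adjusted p = 6.35e-09). Within MK37 mice 3 and 4 stood above the other 4 mice. On the cartridge of the MK29 wild-type mice, the ΔHxΔP mice were counted at 1169 to 1610, and the 129 mice of MK38 at 265 to 327.

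Olfr24, the first gene of the cluster, was near background in MK29. Its counts there were 51.7, 43.4, 22.8, 26.1, 28.8 and 39.7. Background was set per lane at 2 SD above the mean negative control, and 2 of the 6 lanes lay above it. In MK37 they were 212, 225, 349, 379, 204 and 208, so that mice 3 and 4 were again the highest. With MK29 lanes raised to their background where they lay under it, the level in MK37 was at least 5.89-fold higher. Most MK29 values were not above background and the gene passed the expression filter only through its MK37 mice, so its values are given as a description, although it is counted among the calls. ΔHxΔP mice had 156 to 246.

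Olfr844 showed the largest fall from MK29 to MK37 among the called genes. MK29 mice had 614 to 872 with a median of 723, and MK37 mice 271 to 405 with a median of 317. All MK37 mice lay below all MK29 mice (log2 difference −1.16 ± 0.10 (SE), adjusted p = 7.02e-07). ΔHxΔP mice had 219 to 528 and 129 mice 783 to 973.

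Olfr862 was uniform in MK29 and uneven in MK37. MK29 mice had 792 to 878. MK37 mice had 607, 641, 225, 221, 545 and 593 in lane order, with mice 3 and 4 the lowest, and the groups did not overlap (log2 difference −0.97 ± 0.24 (SE), adjusted p = 0.00388). The same MK37 mice 3 and 4 were the highest of their group for Olfr849, at 3778 and 3815 beside 2603 to 2821, and for Olfr851, at 3626 and 3276 beside 2058 to 2296. That the same 2 mice stood apart in Olfr24, Olfr849, Olfr851, Olfr855 and Olfr862 was seen in the values, and they were not tested as a group. Both are females, as are mice 1 and 2.

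Of the other called genes of the proximal cluster, Olfr853 (log2 difference −0.74), Olfr854 (−0.65) and Olfr845 (−0.29) were higher in MK29. Olfr851 (0.76), Olfr868 (0.48), Olfr18 (0.45), Olfr849 (0.43), Olfr873 (0.37), Olfr843 (0.30), Olfr77 (0.30) and Olfr867 (0.25) were higher in MK37. The call of Olfr845 was lost with the positive controls alone and that of Olfr867 with the median of ratios. Olfr828, the measured neighbour of Olfr24, did not pass the test (0.08, adjusted p = 0.332).

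**Figure D2:**
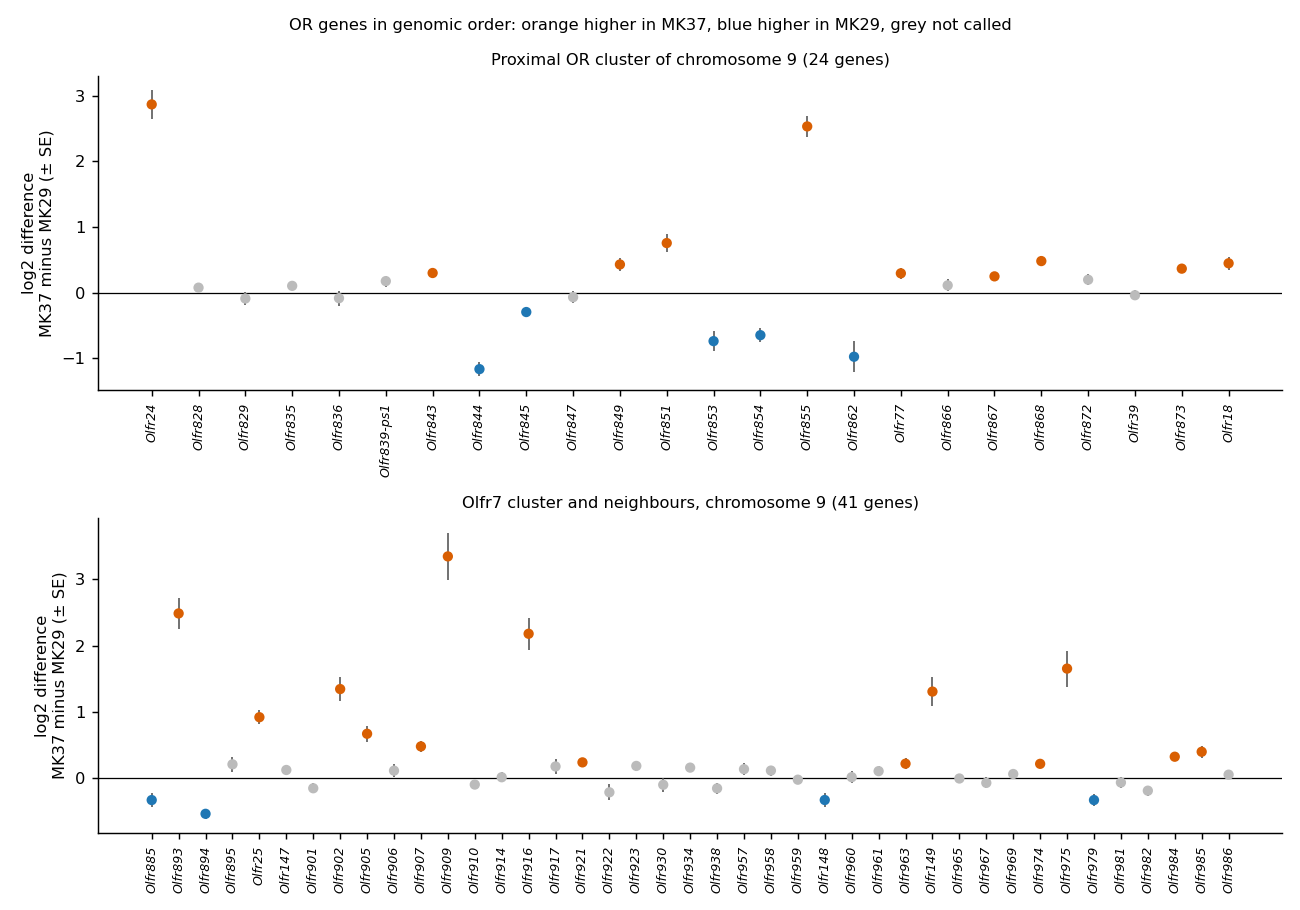
Log2 difference, MK37 minus MK29, of OR genes of chromosome 9 in genomic order (x axis), with bars for the SE from limma on 6 mice a group; the upper panel is the proximal cluster and the lower the distal cluster, which holds the Olfr7 cluster. Large positive differences stand beside genes near 0 or below it, such as Olfr855 (2.53) between Olfr854 (−0.65) and Olfr862 (−0.97).

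In the distal cluster of chromosome 9, from Olfr885 to Olfr986, 18 of 41 tested genes were called (43.9%), 14 higher in MK37 and 4 higher in MK29, and the median log2 difference was 0.12. This share is near the 40.1% called over all OR genes, and 12 of the 18 calls held under all 4 scalings. Its Olfr7 part, which is intact in all mice described here, gave 13 and 4 of 39 genes (43.6% called, also near the share over all OR genes). The genes with the largest differences were Olfr909, Olfr893, Olfr916, Olfr975, Olfr902 and Olfr149.

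For Olfr909 MK29 mice were counted at 56.8, 62.4, 52.7, 45.6, 74.0 and 365, and MK37 mice at 797, 870, 839, 750, 816 and 773. Mouse 6 of MK29 lay between the other 5 mice of its group and the MK37 mice. The FC was 10.2 (log2 difference 3.35 ± 0.36 (SE)), and without that mouse the log2 difference was 3.79. All 6 MK29 lanes were above background, but the MK29 median of 59.6 was under the filter of 100 normalized counts, so this gene too passed it through MK37, and the FC is one of counts without background subtraction. The same holds for Olfr975, with an MK29 median of 75.5. The values of Olfr909 and Olfr975 are therefore also given as a description, although both are counted among the calls.

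The same mouse was intermediate for Olfr893 and Olfr916. Olfr893 was counted at 166, 158, 203, 193, 223 and 617 in MK29 and at 1236 to 1424 in MK37 (log2 difference 2.49 ± 0.24 (SE), adjusted p = 1.22e-06). Olfr916 was counted at 235, 182, 256, 236, 304 and 779 in MK29 and at 1191 to 1480 in MK37 (2.18 ± 0.24 (SE), adjusted p = 5.19e-06). Without mouse 6 of MK29 the log2 differences were 2.77 and 2.46. The 129 mice had 157 to 236 for Olfr893 and 123 to 182 for Olfr916, near MK29 mice 1 to 5 or below them.

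Counts fell into steps in the ΔHxΔP mice, which shared the cartridge with the MK29 wild-type mice. For Olfr909 their counts were 397, 766, 725, 415, 46.8 and 67.8 in lane order. For Olfr893 they were 581, 1002, 866, 624, 205 and 223, and for Olfr916 they were 700, 1121, 1052, 631, 240 and 310. The ΔHxΔP mice thus fell on the same steps in the 3 genes, with mice 2 and 3 the highest, mice 1 and 4 between, and mice 5 and 6 at the level of most MK29 wild-type mice.

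**Figure D3:**
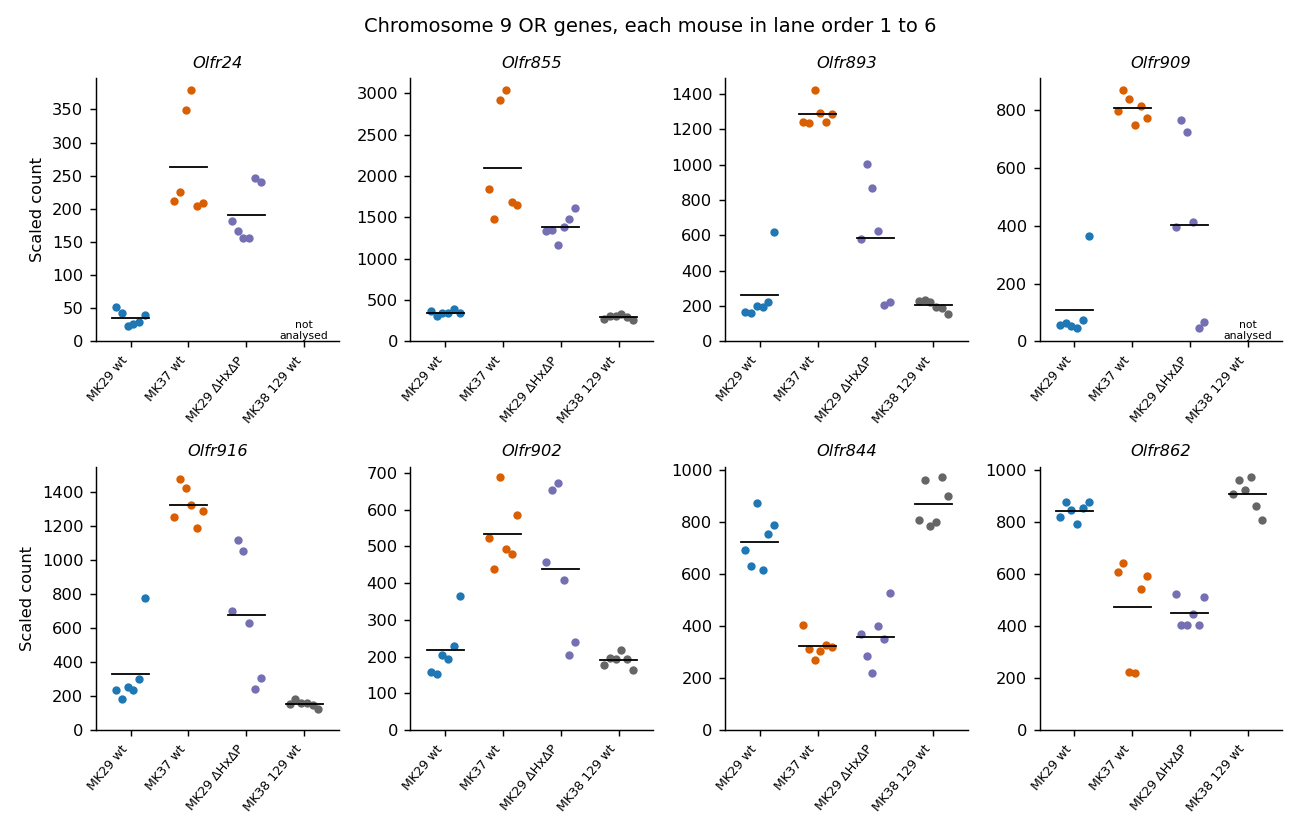
Scaled counts (y axis from 0) of 8 OR genes of chromosome 9 in each of 6 mice of 4 groups, drawn in lane order, with a line at the mean; groups marked "not analysed" have no values here. Mouse 6 of MK29 stands above its group for Olfr893, Olfr909, Olfr916 and Olfr902, and mice 3 and 4 of MK37 stand apart from theirs for Olfr24, Olfr855 and Olfr862.

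Olfr902 was counted at 151 to 364 in MK29 and 438 to 688 in MK37, and Olfr149 at 76.5 to 253 and 285 to 422, both without overlap. Their log2 differences were 1.35 ± 0.17 (SE) (adjusted p = 1.80e-05) and 1.31 ± 0.22 (SE) (adjusted p = 0.000249). Olfr975 ran from 58.7 to 254 in MK29 and from 222 to 357 in MK37, with a log2 difference of 1.66 ± 0.27 (SE), given as a description. The groups overlapped for Olfr975 only through MK29 mouse 6, which was the highest of its group for all 3 genes. Olfr25 was counted at 253 to 400 in MK29 and 553 to 634 in MK37 (log2 difference 0.92 ± 0.10 (SE), adjusted p = 5.19e-06), and here too mouse 6 was the highest of MK29.

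Between these genes stood others that ran the opposite way or did not pass the test. Olfr894, next to Olfr893, was counted at 571 to 656 in MK29 and 399 to 467 in MK37 (log2 difference −0.53 ± 0.07 (SE), adjusted p = 2.66e-05). Olfr910, next to Olfr909, was counted at 2489 to 2982 and 2451 to 2754 (−0.09, adjusted p = 0.225), and passed the test as higher in MK29 with TMM or the median of ratios. Olfr907, on the other side of Olfr909, was higher in MK37 (0.48, adjusted p = 0.000219). Olfr885 (−0.33) was called higher in MK29, a call that was lost with the positive controls alone. Olfr985, just beyond the Olfr7 cluster, was higher in MK37 (0.40 ± 0.09 (SE), adjusted p = 0.00158), with mouse 6 again the highest of MK29 at 853.

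**Figure D4:**
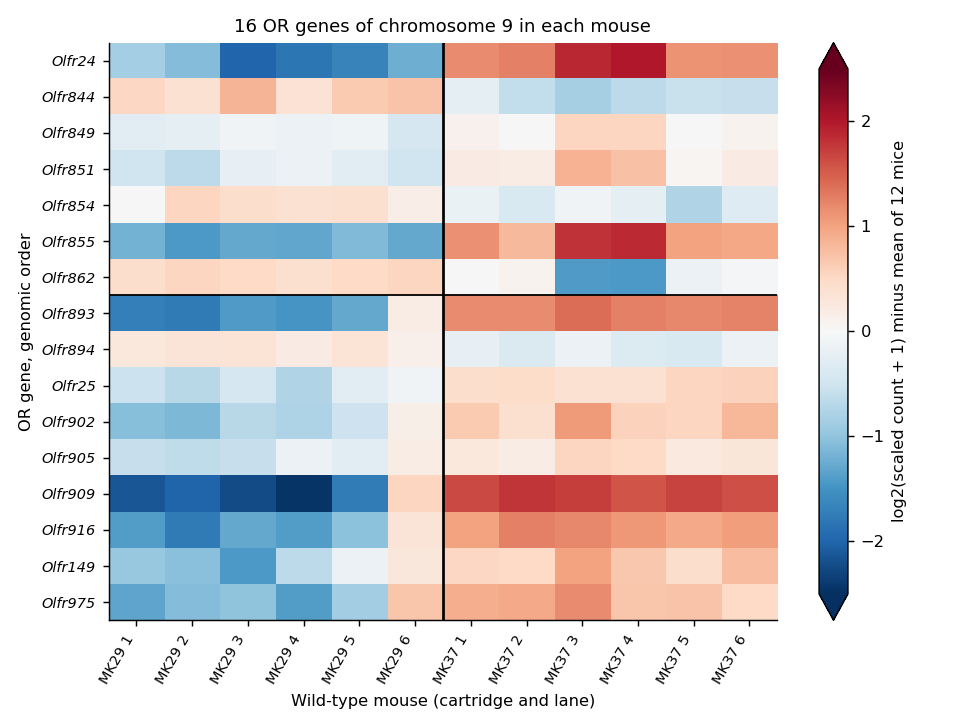
Log2(scaled count + 1) of 16 OR genes of chromosome 9 (rows, genomic order) in 12 wild-type mice (columns), each relative to the mean of the 12 mice; the vertical line parts MK29 from MK37 and the horizontal line the proximal from the distal cluster. MK29 mouse 6 departs from its group in the lower block, and MK37 mice 3 and 4 from theirs in the upper block.

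Outside chromosome 9, Olfr421 of chromosome 1 (log2 difference 1.71) and Olfr1314 of chromosome 2 (1.17) had the largest differences of the called genes, and are described below with the genes that varied between mice. On chromosome 6 Olfr459, Olfr460 and Olfr461 of family MOR120 were all higher in MK37. Olfr459 was counted at 549 to 824 in MK29 and 1085 to 1289 in MK37 (log2 difference 0.73 ± 0.09 (SE), adjusted p = 1.00e-05), and Olfr460 at 490 to 608 and 747 to 1010 (0.71 ± 0.08 (SE), adjusted p = 6.89e-06). Olfr461 differed by 0.70. The 129 mice had 1192 to 1591 for Olfr459, and the ΔHxΔP mice 656 to 857. In the cluster that holds Olfr459, Olfr447 ran the opposite way, at 610 to 674 in MK29 and 375 to 535 in MK37 (−0.49 ± 0.09 (SE), adjusted p = 0.00038).

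On chromosome 4, family MOR262 had 6 of 7 members higher in MK37 and none higher in MK29 (85.7% called, beside 40.1% over all OR genes, and 29.3% higher in MK37), with a median log2 difference of 0.39. Under all 4 scalings 5 of the 6 calls held. MOR262 was chosen after the values of all families were seen. In family MOR232 all 5 genes were called, 3 higher in MK37 and 2 higher in MK29, and 1 of these calls held under all 4 scalings. MOR262 led with Olfr270, at a mean of 545 ± 94.4 (SD, n = 6) in MK29 and 992 ± 128 (SD, n = 6) in MK37 (log2 difference 0.87), followed by Olfr272 (0.59) and Olfr70 (0.52). On chromosome 16 the cluster of Olfr174, Olfr187 and Olfr202 had 3 of 5 genes higher in MK37 (60% called, beside 40.1% over all OR genes). It was picked for its large share called, as were the chromosome 7 cluster given next and the proximal cluster of chromosome 9. Olfr174 was counted at 1724 to 1930 in MK29 and at 1977 to 3945 in MK37 (0.62), Olfr187 differed by 0.54 and Olfr202 by 0.28. A cluster of 6 genes at the start of the chromosome 7 OR genes had 4 higher in MK37 (66.7% called). They were Olfr1346 (0.31), Olfr1350 (0.27), Olfr1348 (0.23) and Olfr1347 (0.14). Of these Olfr1346 and Olfr1347 lost the call with TMM and the median of ratios, and Olfr1347 also with sex as a covariate (0.14) and when any mouse but mouse 3 of either group was left out (0.12 to 0.15).

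Class I OR genes, the fish-like OR genes, were listed by MOR family name, and nearly all lie in 1 large cluster on chromosome 7. In the list, Olfr504 lies in another cluster and Olfr64 has no position. The list had 29 of 84 genes higher in MK37 and 3 higher in MK29 (38.1% called, near the 40.1% over all OR genes). Under all 4 scalings 19 of the 32 calls held. The median log2 difference of the list was 0.13. The leading gene was Olfr665, counted at 2486 to 3308 in MK29 and 4305 to 5172 in MK37 (log2 difference 0.72 ± 0.07 (SE), adjusted p = 1.22e-06). Its neighbour Olfr664 did not differ detectably (0.08, adjusted p = 0.561), and its other neighbour Olfr667 was called higher in MK29 (−0.30, adjusted p = 0.0221). The call of Olfr667 was lost with the positive controls alone and without mouse 4 of MK29 or mouse 1, 2 or 4 of MK37 (−0.27 to −0.25). Olfr665 was at 3250 to 3864 in 129 mice and 2473 to 3810 in ΔHxΔP mice. On the X chromosome Olfr1320 was higher in MK37 (0.67 ± 0.08 (SE), adjusted p = 1.00e-05).

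Among genes higher in MK29, Olfr223 of chromosome 11 was counted at 404 to 545 in MK29 and 237 to 288 in MK37 (log2 difference −0.80 ± 0.09 (SE), adjusted p = 5.19e-06). On chromosome 2 Olfr1275 was counted at 529 to 668 and 255 to 400 (−0.89 ± 0.11 (SE), adjusted p = 1.21e-05). It lies in the same cluster as Olfr1317, with 610 to 735 and 376 to 481 (−0.65 ± 0.08 (SE), adjusted p = 1.00e-05). In the 129 mice these 2 genes were at 204 to 258 and 368 to 459, near the MK37 mice or below them. Olfr1018, also on chromosome 2 and more abundant, fell from 4309 to 5596 in MK29 to 3136 to 3939 in MK37 (−0.56). Olfr414 (−0.34), Olfr76 (−0.39) and Olfr1226 (−0.37) completed the 10 smallest p values in this direction, together with Olfr704 and with Olfr844 and Olfr894 of chromosome 9. Olfr362 of chromosome 2 was also higher in MK29, at 1091 to 1349 beside 815 to 1035 (−0.36 ± 0.07 (SE), adjusted p = 0.00116).

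The OR genes next to the H and P elements were of interest because the 2 colonies are companions of strains that lack the H element or both elements. All 12 mice here are wild-type and have both. In the H cluster, Olfr1507 to Olfr1513 on chromosome 14, Olfr1509 (0.23) and Olfr1513 (0.26) were called higher in MK37 and Olfr1507 higher in MK29, and the other 4 of 7 genes did not pass the test. The share called, 42.9%, was near the 40.1% over all OR genes, and 1 of these calls held under all 4 scalings. Olfr1507, one of the most abundant OR genes, was counted at 8858, 10025, 7073, 8447, 7970 and 10465 in MK29 and at 7846, 5135, 4559, 8513, 8304 and 5917 in MK37. The groups overlapped (log2 difference −0.42 ± 0.14 (SE), adjusted p = 0.0263). The call was lost with the positive controls alone (−0.33), and when mouse 1, 2 or 6 of MK29 or mouse 2, 3 or 6 of MK37 was left out (−0.42 to −0.32). The 129 mice were at 2543 to 3514. In the P cluster of chromosome 7, 3 of 22 genes were higher in MK37 and 6 higher in MK29 (40.9% called, near the 40.1% over all OR genes), with a median log2 difference of −0.04. Under all 4 scalings 5 of the 9 calls held. They included Olfr704 (−0.52) and Olfr710 (−0.43) higher in MK29 and Olfr716 (0.48) and Olfr693 (0.41) higher in MK37. Olfr695 was called higher in MK29 (−0.20, adjusted p = 0.00647), a call that was lost with the positive controls alone. Olfr6, the most abundant of the P cluster, was at 6328 to 7630 and 6205 to 7215 (−0.03, adjusted p = 0.726).

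Of the 5 most abundant OR genes, Olfr1507 and Olfr6 were given above. Olfr309 was at 7984 to 9810 in MK29 and 10670 to 11832 in MK37 (0.32 ± 0.05 (SE), adjusted p = 0.000255), and Olfr1348 at 8676 to 10204 and 10129 to 11448 (0.23 ± 0.05 (SE), adjusted p = 0.00132). Olfr166 was at 7901 to 9569 and 8191 to 9420, with no detectable difference (0.02 ± 0.05 (SE), adjusted p = 0.723). Counts of different probes are not per molecule, so the order of these genes is one of counts.

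The 5 genes with the largest SD within the groups were Olfr90, Olfr107, Olfr909, Olfr1314 and Olfr421. Olfr90 and Olfr107, both of the OR cluster linked to the major histocompatibility complex on chromosome 17, split each colony into mice with low and mice with high counts. Olfr107 was counted at 610, 203, 163, 159, 583 and 607 in MK29 and at 166, 718, 700, 170, 157 and 727 in MK37. Olfr90 was counted at 330, 57.9, 70.5, 70.6, 389 and 303 in MK29 and at 54.6, 325, 277, 57.2, 54.0 and 252 in MK37. The same mice were high for both genes, mice 1, 5 and 6 of MK29 and mice 2, 3 and 6 of MK37. As both colonies held 3 mice of each kind, the groups did not differ detectably (Olfr107 0.09 ± 0.49 (SE), adjusted p = 0.895, and Olfr90 −0.26 ± 0.58 (SE), adjusted p = 0.738).

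Olfr91, the gene beside Olfr90, had the mirror image. The 6 mice high for Olfr90 had 883, 1105 and 981 in MK29 and 849, 817 and 819 in MK37, and the other 6 had 1166 to 1305. Olfr103 and Olfr109, on either side of Olfr107, did not split the mice: Olfr103 ran from 844 to 957 in MK29 and from 781 to 942 in MK37, and Olfr109 from 2748 to 3056 and from 3046 to 3343. All 6 ΔHxΔP mice were above the highest wild-type mouse for Olfr107, at 956 to 1689, and for Olfr90, at 449 to 582, and the 129 mice had 196 to 250 for Olfr107. Of the 16 genes of this cluster, 2 were higher in MK37 and 1 higher in MK29 (18.8% called, beside 40.1% over all OR genes). None of the 3 calls held under all 4 scalings.

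Olfr421 of chromosome 1 and Olfr1314 of chromosome 2 were even in MK29 and uneven in MK37. Olfr421 was counted at 104 to 171 in MK29 and at 125, 898, 459, 421, 860 and 402 in MK37 (log2 difference 1.71 ± 0.35 (SE), adjusted p = 0.00101). Mouse 1 of MK37 lay within the MK29 range, mice 2 and 5 were the highest, and the other 3 lay between. Olfr1406, a gene of the same cluster that was chosen after its values were seen, had the reverse order: 1544 in MK37 mouse 1, 809 and 741 in mice 2 and 5, and 1062 to 1187 in the other 3, beside 1399 to 1659 in MK29 (−0.54 ± 0.13 (SE), adjusted p = 0.00433). The neighbours of Olfr421 were Olfr430 (0.11, adjusted p = 0.338) and Olfr424 (0.26, adjusted p = 0.0046).

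Olfr1314 was counted at 496 to 584 in MK29 and at 490, 441, 1692, 1762, 2616 and 1829 in MK37 (log2 difference 1.17 ± 0.35 (SE), adjusted p = 0.0126). MK37 mice 1 and 2 were thus at the MK29 level and the other 4 far above it. The ΔHxΔP mice had 296 to 585 and the 129 mice 1986 to 2125. Of its neighbours, Olfr1313 did not pass the test (−0.11, adjusted p = 0.4185) and Olfr1317 was higher in MK29, as given above, with no such steps.

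**Figure D5:**
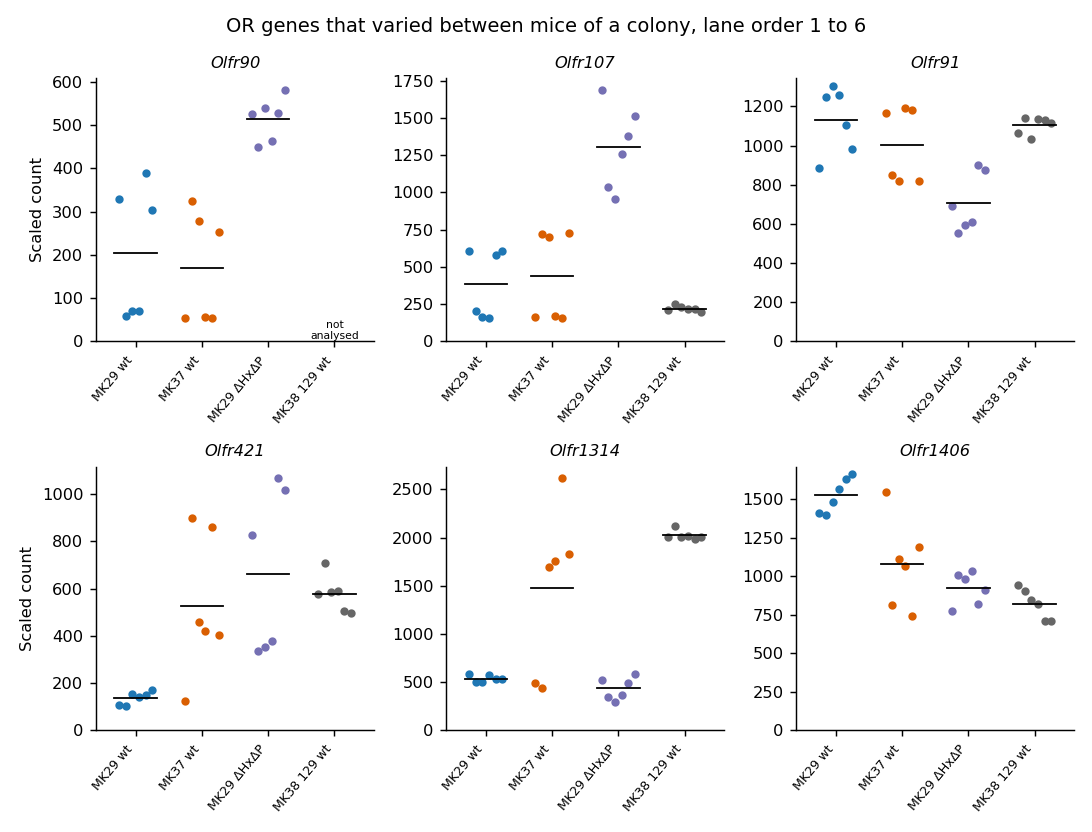
Scaled counts (y axis from 0) of 6 OR genes that varied between mice of a colony, for each of 6 mice of 4 groups in lane order, with a line at the mean; the group marked "not analysed" has no values here. Olfr90 and Olfr107 are high in the same 3 mice of each wild-type group, in which Olfr91 is low; Olfr421 and Olfr1406 run in opposite order in the MK37 mice.

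Over all genes the SD between mice was smaller in MK37 than in MK29 after scaling on the reference genes. The SD of log2 values had a median of 0.12 in MK37 and 0.14 in MK29, and the median ratio of the SDs was 0.856 (exact 2-sided permutation test of per-mouse deviations, n = 6 and 6, p = 0.0455). The difference did not hold with TMM (ratio 0.975, exact permutation p = 0.444) or the median of ratios (0.969, p = 0.487), and leaving out mouse 1, 2, 5 or 6 of MK29 or mouse 2, 3, 4 or 6 of MK37 brought the exact p to between 0.0519 and 0.281.

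Sex was unevenly spread over the groups. No OR gene of 556 had a difference between the groups that differed by sex at an adjusted p under 0.05 in limma (0%). At an unadjusted p under 0.05 there were 21, and no other tool was run for this question. With sex as a covariate 160 genes were called higher in MK37 and 63 higher in MK29, and 216 of the 223 calls were shared. In females alone 137 genes were called, and in males alone 93.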

How the data were processed

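The authors deposited raw NanoString counts of each probe and lane in 1 table, unscaled and without background subtraction. These values are counts, but they were recorded as of unit other because a header block stands above them. Counts were multiplied by factors from the geometric mean of 6 positive controls and then of 5 reference genes, set to the mean of the 12 wild-type lanes. Background was the mean plus 2 SD of 8 negative controls. OR genes with a median of at least 100 normalized counts over the 12 mice were tested (556 of 558; Olfr38 and Olfr520 were under it). limma 3.58.1 in R 4.3.3 was fitted with a mean-variance trend to log2(scaled count + 1), so differences of low genes are understated, with Benjamini-Hochberg adjustment over all tested genes. tTREAT used background-subtracted values, gene-wise variance, τ = 1.5 and an unadjusted p of 0.01. Exact permutation tests ran over all divisions of the 12 mice into 6 and 6.

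Genes named are the 10 smallest p values in each direction, the 5 largest SDs, the 5 highest levels, measured neighbours of the 5 smallest p values and of the 5 largest SDs, called genes of the 3 clusters with the largest share called among those of at least 5 tested genes, and genes the study names; Olfr461, Olfr902, Olfr917, Olfr975, Olfr149, Olfr1406 and the members of other lists were chosen after their values were seen. Clusters are runs of OR genes under 1 Mb apart in the OR table of the study. Its build was not stated in the sources used here, so only gene order is given. The lists and the comparison were chosen with earlier results of these data known. Of 564 OR symbols, 559 were found in RefSeq and 5 as older names. These 5 were Olfr909 (RefSeq symbol Olfr911-ps1), Olfr421 (Olfr421-ps1), Olfr708 (Olfr1532-ps1), Olfr174 (Olfr175) and Olfr418-ps1 (Olfr418). Whether they encode an intact receptor was not analysed. No 2 mice of a group agreed within counting noise (lowest chi-square per degree of freedom 9.38). limma was tested on simulated data for this comparison (556 genes): it called 84% of genes given a FC of 1.3, 96% of those given 1.5, and 10 of 356 left unchanged (2.81%). The simulation drew noise independently for each gene and mouse, with the same SD in both groups and no shift shared by a cartridge. Its 2.81% is therefore not the rate of false calls in the real comparison. The number of mice, more than counting error, limits precision. Alternatives covered scaling, background, pseudocount, filter, covariates, test settings and leaving out each mouse; fits in females or males alone were added after seeing the data. Python 3.11.15 with matplotlib 3.10.9 made the plots.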

Additional observations from a re-analysis of the deposited data

Results flagged for a closer look

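In 10 of 128 groups of 6 mice (64 named OR genes in 2 colonies), 1 mouse stood apart from the other 5. Its gap to its nearest neighbour was above 0.625 of the range on the log2 scale. For independent normal values about 1 in 20 groups would be flagged. Many of the named genes were chosen for their p or SD and some share a cluster, so the 10 flags cannot be set against this rate. Mouse 6 of MK29 was the outlying mouse for Olfr893 at 617, Olfr909 at 365 and Olfr916 at 779, which lie in 1 cluster. In MK29 the others were the lowest value of Olfr459, 549 in mouse 1, and the highest values of Olfr695, 3947 in mouse 4, and Olfr1346, 1376 in mouse 2. In MK37 they were the highest value of Olfr893, 1424 in mouse 3, and the lowest values of Olfr1226, 1203 in mouse 3, of Olfr907, 953 in mouse 6, and of Olfr853, 179 in mouse 4. What sets these values apart was not tested.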

How the results depend on the processing

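The number of genes called between the colonies was 223 and ranged from 207 to 248 over the other scalings, background subtraction, pseudocount, filters, sex as a covariate, the lane block and the fit without a trend, and from 203 to 232 with each mouse left out. With females alone, 137 genes were called (100 higher in MK37), 134 of them among the 223; with males alone, 93 (61 higher in MK37), 90 of them among the 223; these fits have fewer mice. tTREAT called 10 genes, 21 at τ = 1.3, 5 at τ = 2, 8 to 14 under the other settings and 8 to 11 with each mouse left out. The lane number as a replicate block gave 207 calls (152 and 55), and 8 by tTREAT; lane numbers do not pair the mice, as deviations of same-numbered mice correlated between −0.252 and 0.215. The sex interaction gave 0 calls throughout, also with each mouse left out (0 to 0). The median SD ratio of 0.856 was 0.975 with TMM and 0.969 with the median of ratios, both without a detectable difference, and 0.797 to 0.930 with each mouse left out; the cause was not tested. The log2 difference of the reference genes, 0.09, ran from 0.0507 to 0.1385 with each mouse left out (exact permutation p = 0.0476 without MK29 mouse 1), and that of the median OR gene, 0.22, from 0.1919 to 0.2413. Of 1404 alternatives for 64 named genes, 1363 kept the sign and the side of the threshold, 41 changed side in 11 genes and no called value changed sign; in the fits of 1 sex, 32 of 128 changed side. The edgeR and DESeq2 fits, planned only for values recorded as of unit counts, were not run. Genes near background, such as Olfr24 in MK29, are limited by the negative controls.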
